A study of Mus musculus with 8 samples.

Results

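Messenger RNA of 37 splenic macrophage genes was measured in regulatory and effector T cells that had been sorted from mouse spleen, in 8 libraries. They belong to a list of 39 symbols chosen for their known use as macrophage or myeloid markers, and 37 of the 39 were rows of the deposited table of 18438 genes. Adgre1 and Cd14 are not analysed here. The genes fall into 4 groups by role: 8 genes of red pulp macrophages and iron handling, 3 of marginal zone macrophages, 11 of complement, uptake of dead cells, lipid and lysosome function in tissue macrophages, and 15 of 17 pan-myeloid receptors, adaptors and transcription factors. All mice were C57BL/6 studied on day 7 of EAE (experimental autoimmune encephalomyelitis), a disease that resembles multiple sclerosis and was set off in every group with the myelin protein MOG. Treg were sorted as CD4+ CD25hi YFP+ and Teff as CD4+ CD25- YFP-, each from wild-type mice (WT) and from mice labelled IRE1a-/- (KO), with 2 libraries per group. IRE1a, encoded by Ern1, is a stress sensor of the endoplasmic reticulum. Which gene drives YFP, in which cells Ern1 was deleted, and the age of the mice are not given in the sources used here, and no label states that replicates were separate animals. The p-values therefore rest on the spread between libraries alone, and this spread may be technical.

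Macrophages of the spleen are specialised by site. Those of the red pulp clear old red blood cells, break down haem with heme oxygenase and return iron to the blood through ferroportin, and depend on the transcription factor SPI-C. Macrophages of the marginal zone bind blood-borne particles and microbes through scavenger receptors and sialic acid receptors. Both kinds share complement, scavenging and Fc receptor genes with macrophages elsewhere in the body.

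Values are the authors' normalized read numbers, given for replicate 1 and then replicate 2 of each group. Library sums ran from 17504097 to 18751258 after the authors' scaling, so the sequencing depth is unknown, and the 2 libraries of a group correlated across genes at r between 0.988 and 0.990 on the log2 scale. Ern1 had 377 and 399 in WT Treg, 326 and 359 in KO Treg, 559 and 616 in WT Teff and 458 and 453 in KO Teff. Its KO mean lay below the WT mean in both sorts without passing limma's test (adjusted p = 0.489 in Treg and 0.0902 in Teff), and since a gene value can count transcripts of a disrupted allele, it does not check the genotype labels. The 10 measured T cell genes of the marker list, Cd4, Lck and Lat among them, summed to between 96276 and 109673 in every library. Foxp3, the lineage factor of Treg, had 89.1 and 92.2 in WT Treg, 111 and 117 in KO Treg, 0 and 0 in WT Teff and 2.06 and 8.29 in KO Teff, in the direction of the sort labels. At these low Teff values limma called Foxp3 higher in KO Teff than in WT Teff (log2 difference 2.41, adjusted p = 0.0419), as it did 1.84% of all tested genes. Il2ra, which encodes CD25, also ran in the direction of the sort labels, with 8943 and 9012 in WT Treg, 8887 and 8699 in KO Treg, 690.3 and 588 in WT Teff and 537 and 436 in KO Teff.

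The macrophage genes were a small part of each library and far from even across the sorts. Together the 37 genes summed to 56901 and 59065 in WT Treg, 35233 and 32792 in KO Treg, 7769.8 and 5577 in WT Teff and 3869 and 3023 in KO Teff. This was 0.319% and 0.333% of the WT Treg libraries and 0.0209% and 0.0165% of the KO Teff libraries. The 4 Treg libraries lay above all 4 Teff libraries, and within each sort both KO libraries lay below both WT libraries. In 33 of 37 genes the highest library was a WT Treg library. In sorted bulk RNA, fewer cells of a type and less RNA per cell cannot be told apart.

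**Figure D1:**
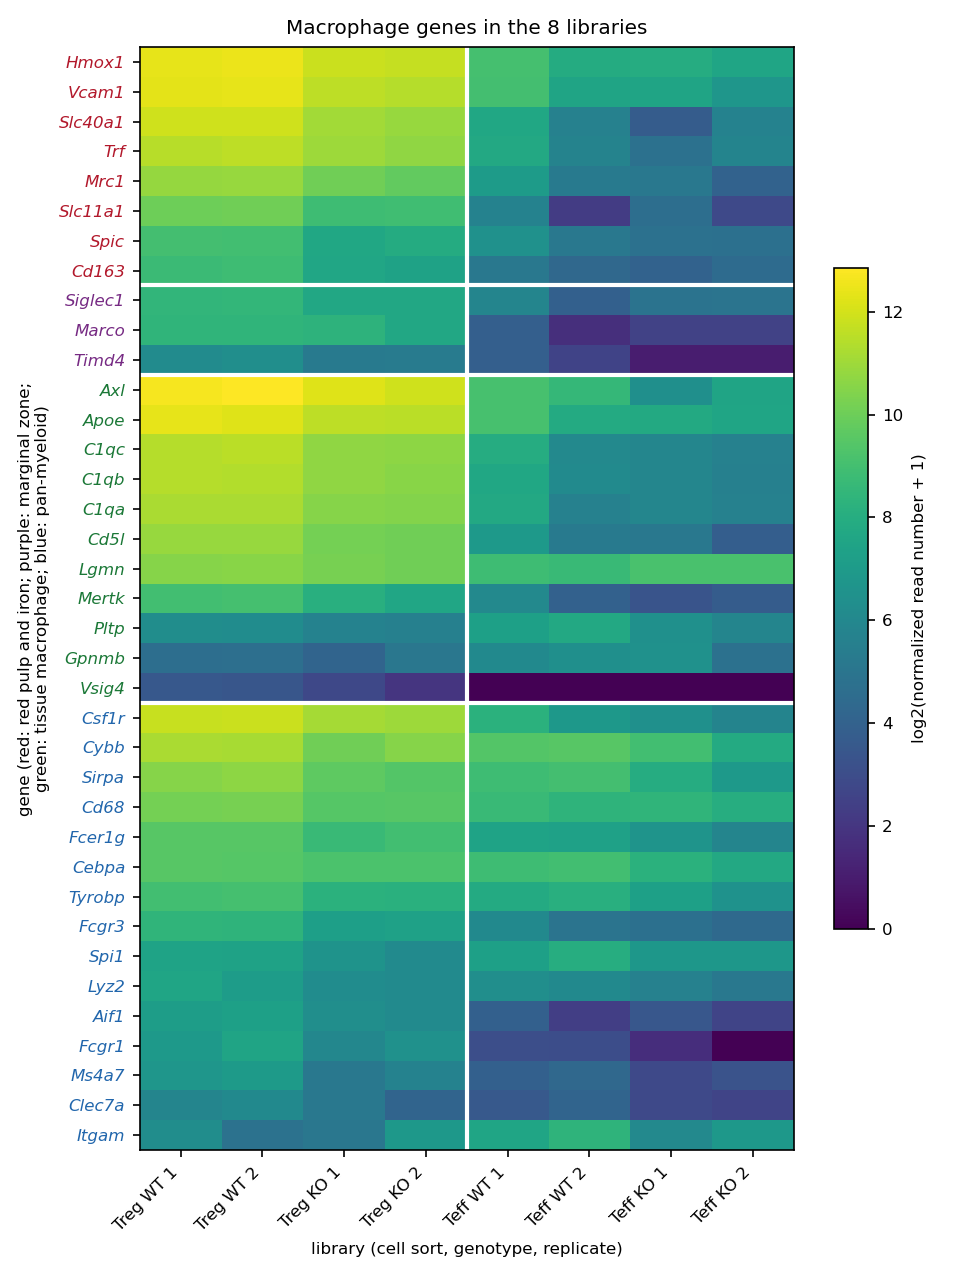
Each row is a macrophage gene, grouped and coloured by role, and each column a library; colour gives log2 of the normalized read number plus 1. Most rows are brightest in the 2 WT Treg libraries and dimmer in the 2 KO Treg libraries, while Itgam, Pltp and Gpnmb are brighter in WT Teff than in WT Treg.

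To compare groups, limma was run over all 8 libraries on log2(value + 1), and p-values were adjusted by Benjamini-Hochberg over the 13358 genes that reached 10 in 2 or more libraries. Of the 37 macrophage genes 36 entered the test. Vsig4, a complement receptor of resident macrophages, did not: it had 10.8 and 9.81 in WT Treg, 5.90 and 2.95 in KO Treg, 0 and 0 in WT Teff and 0 and 0 in KO Teff. In the comparison of WT Treg with WT Teff, 32 of 36 genes were higher in Treg and 2 lower (adjusted p below 0.05), where 13.5% of all tested genes were called higher and 11.6% lower. The median log2 difference was 3.71, against -0.00157 over all tested genes. The 2 WT libraries of 1 sort lay above both of the other in 32 genes with Treg higher and 3 with Teff higher (Pltp, Itgam and Gpnmb), where the background was 32.0% and 31.5%. In KO, 31 of 36 were higher in Treg and 0 lower (background 15.7% and 11.2%), with a median of 3.22. There the libraries did not overlap in 32 genes with Treg higher and 2 with Treg lower (background 32.9% and 32.1%). Fold changes on the log2(value + 1) scale understate the change of genes near 0.

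Among red pulp and iron genes, all 8 were higher in Treg in both genotypes, where 13.5% of all tested genes were in WT and 15.7% in KO. Slc40a1 encodes ferroportin, the iron exporter (chromosome 1, 45908068 to 45926523 of GRCm38), and had 3829 and 3952 in WT Treg, 2153 and 1891 in KO Treg, 203 and 50.0 in WT Teff and 12.3 and 50.2 in KO Teff. Its lowest Treg value was several times its highest Teff value (Treg against Teff in WT: log2 difference 5.25, SE 0.74, adjusted p = 0.00209; in KO: log2 difference 6.27, SE 0.74, adjusted p = 0.000769). Hmox1, the haem-degrading enzyme, had 5311 and 5725 in WT Treg, 3583 and 3429.9 in KO Treg, 531 and 241 in WT Teff and 252 and 185 in KO Teff (WT: log2 difference 3.94, SE 0.33, adjusted p = 0.000217). Vcam1, an adhesion molecule by which red pulp macrophages are often sorted, had 5063 and 5294 in WT Treg, 3037 and 2759 in KO Treg, 517 and 182 in WT Teff and 181 and 107 in KO Teff (WT: log2 difference 4.07, SE 0.45, adjusted p = 0.000720). In both genes WT Teff replicate 1 stood above the other 3 Teff libraries, and no Teff library reached the Treg range.

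Trf encodes transferrin, the iron carrier of plasma, and had 2871 and 3087 in WT Treg, 1999 and 1671 in KO Treg, 213 and 52.0 in WT Teff and 27.0 and 55.3 in KO Teff. Slc11a1, a metal transporter of the phagosome, had 1036 and 1089.8 in WT Treg, 471 and 487 in KO Treg, 50.6 and 3.89 in WT Teff and 23.6 and 6.18 in KO Teff. The groups did not overlap between the sorts for either gene (WT log2 difference 4.80 and 6.06, adjusted p = 0.00128 and 0.00468). The Slc11a1 difference in KO (5.17, adjusted p = 0.00886) missed the threshold without KO Teff replicate 2, at an adjusted p of 0.0565. Spic, the red pulp macrophage factor, had 513 and 504 in WT Treg, 200.3 and 243 in KO Treg, 91.2 and 34.8 in WT Teff and 26.9 and 26.1 in KO Teff. Cd163, the receptor for haemoglobin bound to haptoglobin, had 441 and 464 in WT Treg, 195 and 171 in KO Treg, 34.4 and 19.0 in WT Teff and 15.8 and 21.3 in KO Teff. Mrc1, the mannose receptor, had 1817 and 1844 in WT Treg, 1090.2 and 881 in KO Treg, 131 and 37.9 in WT Teff and 34.7 and 15.3 in KO Teff. These 3 genes shared the order of the libraries, with both WT Treg libraries above both KO Treg libraries and all of those above every Teff library (WT log2 differences 3.15, 4.09 and 4.68, adjusted p = 0.00129, 0.000124 and 0.00111).

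All 3 marginal zone genes were also higher in Treg in both genotypes, where 13.5% of all tested genes were in WT and 15.7% in KO. Marco, a scavenger receptor, had 338 and 339 in WT Treg, 319 and 208 in KO Treg, 13.8 and 2.32 in WT Teff and 4.74 and 4.73 in KO Teff (WT: log2 difference 5.60, SE 0.63, adjusted p = 0.000790). Siglec1, the sialic acid receptor of metallophilic macrophages, had 356 and 359 in WT Treg, 209 and 206 in KO Treg, 57.4 and 14.4 in WT Teff and 28.8 and 29.8 in KO Teff (WT: log2 difference 3.58, SE 0.53, adjusted p = 0.00269). Timd4, a receptor for phosphatidylserine on dying cells, had 72.6 and 81.4 in WT Treg, 37.4 and 40.3 in KO Treg, 14.1 and 5.04 in WT Teff and 1.03 and 1.03 in KO Teff (WT: log2 difference 3.03, SE 0.48, adjusted p = 0.00356). Cd209b, a lectin that marks macrophages of the marginal zone, had 0.981 and 0 in WT Treg, 0 and 1.97 in KO Treg, 0 and 0 in WT Teff and 0 and 0 in KO Teff and was too low to test. In WT Treg the 3 marginal zone genes summed to 766 and 779 against 20879 and 21960.2 for the 8 red pulp and iron genes, sums that depend on gene length and on the genes listed.

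**Figure D2:**
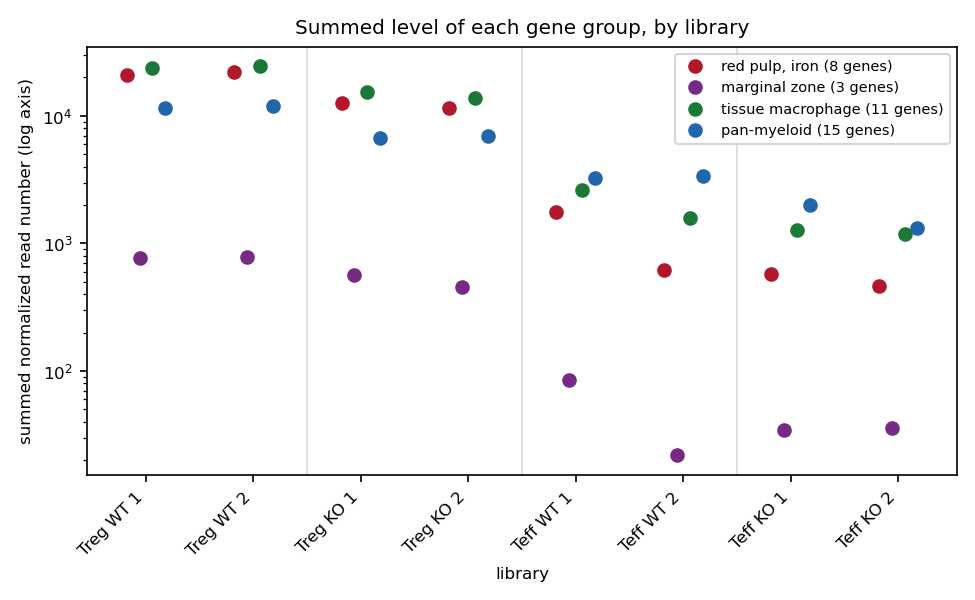
Points give the summed normalized read number (log axis) of each of 4 gene groups in each of the 8 libraries. For all 4 groups every Treg library lies above every Teff library, and WT Teff replicate 1 lies above WT Teff replicate 2 for the red pulp group (1773 against 620.5) but not for the pan-myeloid group (3274 against 3356).

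Among the genes of tissue macrophages, 8 of 10 tested were higher in Treg in WT and 8 in KO, where 13.5% and 15.7% of all tested genes were. C1qa, C1qb and C1qc encode the 3 chains of complement C1q and lie together on chromosome 4 (C1qa at 136895917 to 136898803, C1qc at 136889804 to 136893065 and C1qb at 136880129 to 136886187 of GRCm38). C1qa had 2403 and 2422 in WT Treg, 1451 and 1427 in KO Treg, 215 and 49.4 in WT Teff and 58.8 and 48.4 in KO Teff. C1qb had 2724 and 2693 in WT Treg, 1661 and 1531 in KO Treg, 204 and 70.6 in WT Teff and 57.8 and 47.4 in KO Teff, and C1qc had 2793 and 2947 in WT Treg, 1699 and 1636 in KO Treg, 246 and 66.4 in WT Teff and 58.7 and 49.9 in KO Teff. The shares of the 3 chains varied little between libraries. C1qa made 26.5% to 33.5% of their sum, C1qb 30.7% to 37.9% and C1qc 33.5% to 37.0%, while the sum itself was many times higher in Treg (WT log2 differences 4.53, 4.48 and 4.47, adjusted p = 0.00124, 0.000358 and 0.000791).

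Axl and Mertk are receptor kinases that bind dying cells through bridging proteins. Axl had 6496 and 7409 in WT Treg, 4777 and 3935 in KO Treg, 545 and 383 in WT Teff and 84.5 and 182 in KO Teff (WT: log2 difference 3.92, SE 0.34, adjusted p = 0.000242), and Mertk 506 and 535 in WT Treg, 274 and 196 in KO Treg, 64.4 and 14.9 in WT Teff and 9.13 and 12.2 in KO Teff (WT: log2 difference 4.02, SE 0.59, adjusted p = 0.00246). Apoe, the lipid carrier, had 5346 and 4855 in WT Treg, 2999.8 and 2936 in KO Treg, 547 and 229.8 in WT Teff and 225 and 186 in KO Teff. Cd5l, a secreted protein of tissue macrophages, had 1855 and 1902 in WT Treg, 1130.2 and 1067 in KO Treg, 124 and 38.3 in WT Teff and 34.0 and 13.4 in KO Teff. Apoe and Cd5l were higher in Treg by 3.84 and 4.75 on the log2 scale in WT (adjusted p = 0.000303 and 0.00100), with no overlap between sorts. Lgmn, a lysosomal protease, had 1446 and 1539.6 in WT Treg, 1191 and 1072 in KO Treg, 466 and 424 in WT Teff and 573 and 570.4 in KO Teff. Its difference between sorts was smaller (log2 difference 1.75, SE 0.09, adjusted p = 3.19e-05 in WT), and its Teff values were among the highest of the tissue macrophage genes.

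The 2 remaining tested genes of this group had higher values in WT Teff than in WT Treg. Pltp, the phospholipid transfer protein, had 76.6 and 76.4 in WT Treg, 50.8 and 47.1 in KO Treg, 159 and 219 in WT Teff and 85.9 and 55.9 in KO Teff. It was lower in Treg than in Teff in WT (log2 difference -1.28, SE 0.26, adjusted p = 0.0113), a call that failed when 1 WT Treg library or WT Teff replicate 2 was left out (adjusted p up to 0.0712), and did not pass in KO (-0.49, adjusted p = 0.216), though it did with quantile normalization (0.0456). Exons of Pltp overlap those of Ctsa on the opposite strand, and the labels name no step that marks strand, so part of its value can be Ctsa. Gpnmb, a lysosomal membrane glycoprotein, had 23.8 and 24.6 in WT Treg, 16.8 and 33.6 in KO Treg, 66.9 and 83.9 in WT Teff and 91.2 and 27.0 in KO Teff and did not pass in either genotype (WT log2 difference -1.59, adjusted p = 0.0851; KO -1.03, adjusted p = 0.233). It was called lower in WT Treg when only the 2 groups were fitted or when either KO Teff library was left out (adjusted p down to 0.0145), and lower in KO Treg without KO Teff replicate 2 (0.0341).

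Promoters of 27 of the 37 genes were in the RefSeq table for GRCm38.p6. Shown are C1qb and C1qc, adjacent genes with nearly equal values, Mrc1 and Cd5l, which were high in Treg, and Itgam and Pltp, which were not. Each sequence holds the 250 bases before the start site, 5′ to 3′ on the gene's strand. Capitals mark GAGGAA, a core sequence bound by the myeloid factor PU.1 (encoded by Spi1) and related ETS proteins, or its reverse complement TTCCTC.
C1qb (chr4:136886201-136886450, minus strand): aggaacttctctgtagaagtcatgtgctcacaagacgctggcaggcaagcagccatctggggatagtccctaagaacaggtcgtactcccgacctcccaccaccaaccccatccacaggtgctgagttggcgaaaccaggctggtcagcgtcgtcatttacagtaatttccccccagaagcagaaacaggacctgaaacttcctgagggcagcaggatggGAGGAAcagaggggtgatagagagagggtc
C1qc (chr4:136892915-136893164, minus strand): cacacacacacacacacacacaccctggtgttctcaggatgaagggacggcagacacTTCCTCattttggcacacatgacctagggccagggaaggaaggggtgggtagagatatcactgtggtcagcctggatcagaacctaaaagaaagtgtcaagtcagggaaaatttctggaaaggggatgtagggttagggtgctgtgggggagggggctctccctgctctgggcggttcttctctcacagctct
Mrc1 (chr2:14229164-14229413, plus strand): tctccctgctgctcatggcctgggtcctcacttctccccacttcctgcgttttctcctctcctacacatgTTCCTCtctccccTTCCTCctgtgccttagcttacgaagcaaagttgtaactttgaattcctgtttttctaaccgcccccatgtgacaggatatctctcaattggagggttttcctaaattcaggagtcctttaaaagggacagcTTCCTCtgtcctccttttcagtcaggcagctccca
Cd5l (chr3:87357631-87357880, plus strand): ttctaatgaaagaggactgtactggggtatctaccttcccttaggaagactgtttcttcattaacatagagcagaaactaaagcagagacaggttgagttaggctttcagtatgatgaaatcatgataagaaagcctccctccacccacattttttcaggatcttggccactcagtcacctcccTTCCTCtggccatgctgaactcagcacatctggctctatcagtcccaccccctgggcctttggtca
Itgam (chr7:128062390-128062639, plus strand): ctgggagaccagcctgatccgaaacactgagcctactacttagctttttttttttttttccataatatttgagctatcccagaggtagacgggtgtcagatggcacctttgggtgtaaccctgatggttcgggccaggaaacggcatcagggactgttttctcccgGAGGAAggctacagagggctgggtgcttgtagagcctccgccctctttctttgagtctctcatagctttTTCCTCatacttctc
Pltp (chr2:164857709-164857958, minus strand): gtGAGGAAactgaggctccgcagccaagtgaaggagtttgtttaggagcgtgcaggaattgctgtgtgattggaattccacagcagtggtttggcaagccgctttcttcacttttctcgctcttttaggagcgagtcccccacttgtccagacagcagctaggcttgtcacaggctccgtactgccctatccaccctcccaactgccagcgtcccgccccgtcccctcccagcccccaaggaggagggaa
On either strand GAGGAA was found in 16 of these 27 genes (59.3%) and in 25.9% of the 27025 genes of the table. The pattern TGANNNNGC, the core of the antioxidant response element, was found in 9 of 27 (33.3%) and in 38.7% of all genes. A gene with several start sites was counted once if any of its windows held the pattern, and the 2 patterns were counted separately. A match describes the letters and does not show binding. Itgam and Pltp, which were not higher in Treg, hold GAGGAA matches as well.

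Most pan-myeloid genes were also higher in Treg, but by unlike amounts. Of 15 tested, 13 were higher and 1 lower in Treg in WT, where 13.5% and 11.6% of all tested genes were. The median log2 difference was 1.72, against 4.38 for red pulp and iron genes. Csf1r, the receptor for the macrophage growth factor M-CSF, had 3472 and 3655 in WT Treg, 2222 and 2033 in KO Treg, 300.3 and 114 in WT Teff and 85.3 and 55.3 in KO Teff (WT: log2 difference 4.26, SE 0.41, adjusted p = 0.000421), although exons of Hmgxb3 overlap it on the other strand. Fcgr1, the high-affinity IgG receptor, had 119 and 178 in WT Treg, 60.3 and 89.1 in KO Treg, 7.40 and 7.17 in WT Teff and 2.17 and 0 in KO Teff (WT: log2 difference 4.15, SE 0.57, adjusted p = 0.00184). Aif1, an actin-binding protein of macrophages, had 142 and 159 in WT Treg, 81.7 and 70.5 in KO Treg, 14.6 and 4.25 in WT Teff and 10.2 and 5.22 in KO Teff (WT: log2 difference 4.06, SE 0.54, adjusted p = 0.00157). The sort differences of these 3 genes lay within the range of the red pulp genes.

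The other pan-myeloid genes that were higher in Treg differed less between sorts. Cybb, a subunit of the phagocyte NADPH oxidase, had 2357 and 2325 in WT Treg, 1089 and 1446 in KO Treg, 689.8 and 735 in WT Teff and 491 and 229 in KO Teff. Sirpa, the receptor for CD47, had 1446 and 1605 in WT Treg, 804 and 683 in KO Treg, 458 and 513 in WT Teff and 248 and 122 in KO Teff. Cd68, a lysosomal glycoprotein, had 1136 and 1177 in WT Treg, 708 and 724 in KO Treg, 418 and 323 in WT Teff and 334 and 259 in KO Teff. Their WT log2 differences were 1.72, 1.65 and 1.65 (adjusted p = 0.00694, 0.00578 and 0.000423). Fcer1g and Tyrobp encode signalling adaptors of myeloid and NK cell receptors. Fcer1g had 729 and 721 in WT Treg, 414 and 503 in KO Treg, 173 and 161 in WT Teff and 98.0 and 56.6 in KO Teff. Tyrobp had 499 and 529.9 in WT Treg, 293 and 287 in KO Treg, 232 and 273 in WT Teff and 156 and 91.4 in KO Teff. The sorts did not overlap for either adaptor (WT log2 difference 2.11 and 1.03, adjusted p = 0.000907 and 0.0179), and the Tyrobp call failed when 1 WT Treg library or WT Teff replicate 1 was left out (adjusted p up to 0.0914).

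Fcgr3 encodes an IgG receptor close in sequence to that of Fcgr2b, so its value is uncertain. It had 338 and 324 in WT Treg, 152 and 161 in KO Treg, 67.7 and 29.6 in WT Teff and 26.3 and 19.8 in KO Teff. Ms4a7, a membrane protein of macrophages, had 105 and 129 in WT Treg, 35.0 and 50.8 in KO Treg, 14.4 and 19.5 in WT Teff and 6.10 and 8.90 in KO Teff. Clec7a, the beta-glucan receptor dectin-1, had 57.1 and 66.6 in WT Treg, 34.4 and 16.5 in KO Treg, 10.9 and 16.8 in WT Teff and 6.03 and 5.18 in KO Teff. All 3 were higher in Treg in both genotypes (WT log2 differences 2.86, 2.72 and 2.10, adjusted p = 0.00137, 0.00125 and 0.0115), but the Clec7a call in WT failed when 1 WT Treg library or WT Teff replicate 1 was left out (adjusted p up to 0.0753), and in KO without KO Treg replicate 1 or KO Teff replicate 2 and when only the 2 groups compared were fitted (up to 0.0941). Lyz2, the lysozyme of myeloid cells, had 186 and 137 in WT Treg, 74.8 and 69.8 in KO Treg, 81.4 and 67.6 in WT Teff and 48.5 and 35.0 in KO Teff. It was higher in Treg in WT (1.10, adjusted p = 0.0176, up to 0.112 without WT Treg replicate 1 or WT Teff replicate 2) and did not pass in KO (0.79, adjusted p = 0.0553), though it did with library totals made equal, with the replicate block and without KO Teff replicate 1.

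Transcription factors of the myeloid lineage did not share the size of the red pulp difference. Spi1, which encodes PU.1, had 176 and 166 in WT Treg, 97.3 and 70.3 in KO Treg, 160.0 and 256 in WT Teff and 111 and 111 in KO Teff, with overlap between WT Treg and WT Teff and no call (WT log2 difference -0.25, adjusted p = 0.545; KO -0.42, adjusted p = 0.279). The sign of the WT value turned without WT Teff replicate 2. Cebpa, a factor of myeloid progenitors, had 733 and 711 in WT Treg, 583 and 600.4 in KO Treg, 461 and 506 in WT Teff and 296 and 216 in KO Teff. It was higher in Treg by 0.58 in WT (adjusted p = 0.0288) and by 1.22 in KO (adjusted p = 0.000943). Leaving out any 1 WT library, or trend and robust shrinkage, ended the WT call (adjusted p up to 0.126). Exons of Vcam1, Trf, Cebpa and Itgam overlap predicted genes (Gm43109, Gm20425, Gm45091 and Gm49368), whose reads could be counted with them.

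Itgam, the CD11b integrin chain, was lower in Treg than in Teff in WT and had 77.3 and 28.0 in WT Treg, 33.1 and 116 in KO Treg, 186 and 330.2 in WT Teff and 64.4 and 114 in KO Teff. The log2 difference was -2.39 (SE 0.69, adjusted p = 0.0431). The call was lost without WT Treg replicate 2 or any 1 Teff library, without trend and robust shrinkage, and with the replicate block (adjusted p up to 0.212), and Itgam did not pass in KO (-0.46, adjusted p = 0.677). Of 9 tested genes of conventional dendritic cells, 5 were lower in WT Treg and 3 higher, where 11.6% and 13.5% of all tested genes were. Itgax, the CD11c chain, had 45.9 and 85 in WT Treg, 35.7 and 30.1 in KO Treg, 481 and 1043 in WT Teff and 453 and 222 in KO Teff, and Flt3, a receptor of dendritic cells and their progenitors, 1.86 and 4.05 in WT Treg, 2.80 and 1.87 in KO Treg, 141 and 179.7 in WT Teff and 82.9 and 59.4 in KO Teff. Siglech, a marker of plasmacytoid dendritic cells, had 5.28 and 2.94 in WT Treg, 3.54 and 1.35 in KO Treg, 196 and 216 in WT Teff and 128 and 50.5 in KO Teff. The sums of the 9 conventional dendritic cell genes were 5185 and 5241 in WT Treg and 1288 and 2114 in WT Teff, led in Treg by Itgae and Cd83, which T cells also express. Zbtb46, a factor of conventional dendritic cells, was also called higher in Treg in both genotypes. It had 295 and 278 in WT Treg, 169 and 154 in KO Treg, 101 and 153 in WT Teff and 59.2 and 53.3 in KO Teff. Its WT log2 difference was 1.20 (limma adjusted p = 0.00671), so the genes of this list went both ways. Cd209a was listed at 0 in every Treg library. The part of these cells in the values of Itgam, Pltp, Gpnmb and Spi1 was not tested.

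The 2 WT Teff libraries stood apart in the red pulp and tissue macrophage genes. In 19 of 36 tested genes WT Teff replicate 1 was more than 2-fold above replicate 2, against 4.41% of all tested genes. Of the 21 genes whose mean was more than 8-fold higher in WT Treg than in WT Teff, 18 did so, with a median ratio of 3.22 between the 2 Teff libraries. Of the other 15 tested genes 1 did (Fcgr3), with a median ratio of 0.892. The 8-fold line was set after the values were seen, and both ratios use the WT Teff libraries. Between the 2 WT Treg libraries the same 21 genes had ratios of 0.669 to 1.10. For Treg against Teff in WT, 30 genes were called without WT Teff replicate 1 and 30 without replicate 2, against 34 with all libraries.

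**Figure D3:**
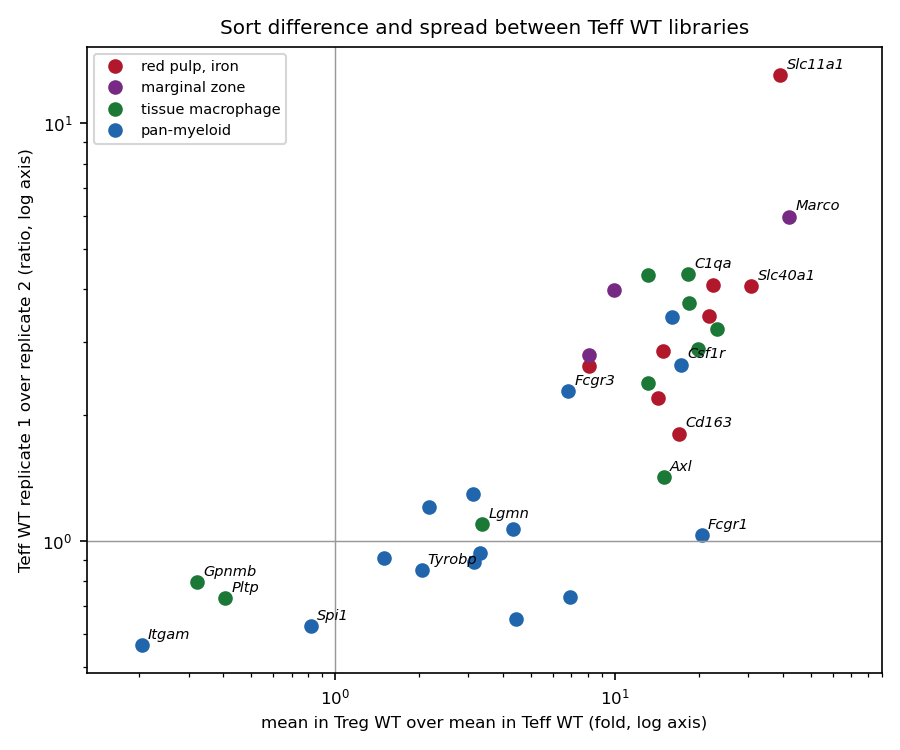
Each point is 1 of 36 tested genes, coloured by role; the x axis gives the fold of mean levels in WT Treg over WT Teff and the y axis the ratio of WT Teff replicate 1 to replicate 2, both on log axes. Genes far to the right lie mostly above 2 on the y axis, while Itgam, Pltp, Gpnmb and Spi1 lie at the lower left, with ratios of 0.564, 0.729, 0.797 and 0.625.

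The next comparison asked whether the macrophage genes differed between KO and WT Treg. Both KO libraries lay below both WT libraries in 34 of 36 tested genes, and in 25.9% of all tested genes. They lay above in 0 of 36, and in 22.8% of all. The median log2 difference of the 36 was -0.80, against -0.01 over all genes. No macrophage gene passed limma's test over all 8 libraries (0 of 36, where 0.779% of all genes were called lower and 0.674% higher), and 14 had an unadjusted p below 0.05, all of them lower, as 8.18% of all genes did. By role the medians were -0.92 for red pulp and iron genes, -0.78 for marginal zone genes, -0.75 for tissue macrophage genes and -0.98 for pan-myeloid genes. The 2 genes whose groups overlapped were Itgam and Gpnmb, both with higher values in WT Teff than in WT Treg. Pltp and Spi1 also had higher means in WT Teff than in WT Treg. For them both KO Treg libraries lay below both WT Treg libraries (log2 difference -0.63 and -1.04). As summed values, KO Treg stood at 56.6% of WT for red pulp and iron genes, 65.9% for marginal zone genes, 60.6% for tissue macrophage genes and 57.9% for pan-myeloid genes. The T cell list stood at 99.3%.

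The fit over all libraries shares 1 estimate of the spread over all groups. For these genes it includes the distances between replicates in both Teff groups, that between the 2 WT Teff libraries among them. Fitted on the 2 Treg groups alone, limma called 17 of 36 macrophage genes, all lower in KO, where 1.19% of the genes in that fit were called lower. They included Slc11a1 (log2 difference -1.15, SE 0.08, adjusted p = 0.0123), C1qa (-0.75, SE 0.05, adjusted p = 0.0127), Vcam1 (-0.84, SE 0.07, adjusted p = 0.0149) and Slc40a1 (-0.95, SE 0.08, adjusted p = 0.0174). In the fit over all libraries the same genes had SEs of 1.02, 0.56, 0.45 and 0.74 and adjusted p = 0.667, 0.608, 0.461 and 0.619. The fit on the Treg groups alone rests on 2 libraries per group, which the design held too few to fit 2 groups alone. The part of the Teff libraries in the gap between the fits was not tested. Without either WT Teff library, or without both, 3 genes were called (Apoe, C1qc and Spic), and without either KO Teff library also 3 (Cybb, Sirpa and Tyrobp).

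Gene by gene, the KO share of the WT level varied. Among the 21 genes more than 8-fold higher in WT Treg than in WT Teff, the KO mean was 40.4% to 77.7% of the WT mean, with a median of 58.1%. The C1q chains stood at 59.6%, 58.9% and 58.1%, Cd5l at 58.5% and Csf1r at 59.7%. Cd163 had the lowest share of the 21 and Marco the highest. Spic stood at 43.7%. In the authors' deposited table, 5 of the 37 genes had an adjusted p below 0.05 for KO against WT in Treg, all lower: Cd163 (-1.31, adjusted p = 0.00119), Sirpa (-1.04, 0.00389), Cd68 (-0.69, 0.00720), Cybb (-0.89, 0.0339) and Lgmn (-0.40, 0.0449). That table called 1.87% of its genes lower in KO Treg and 1.40% higher.

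**Figure D4:**
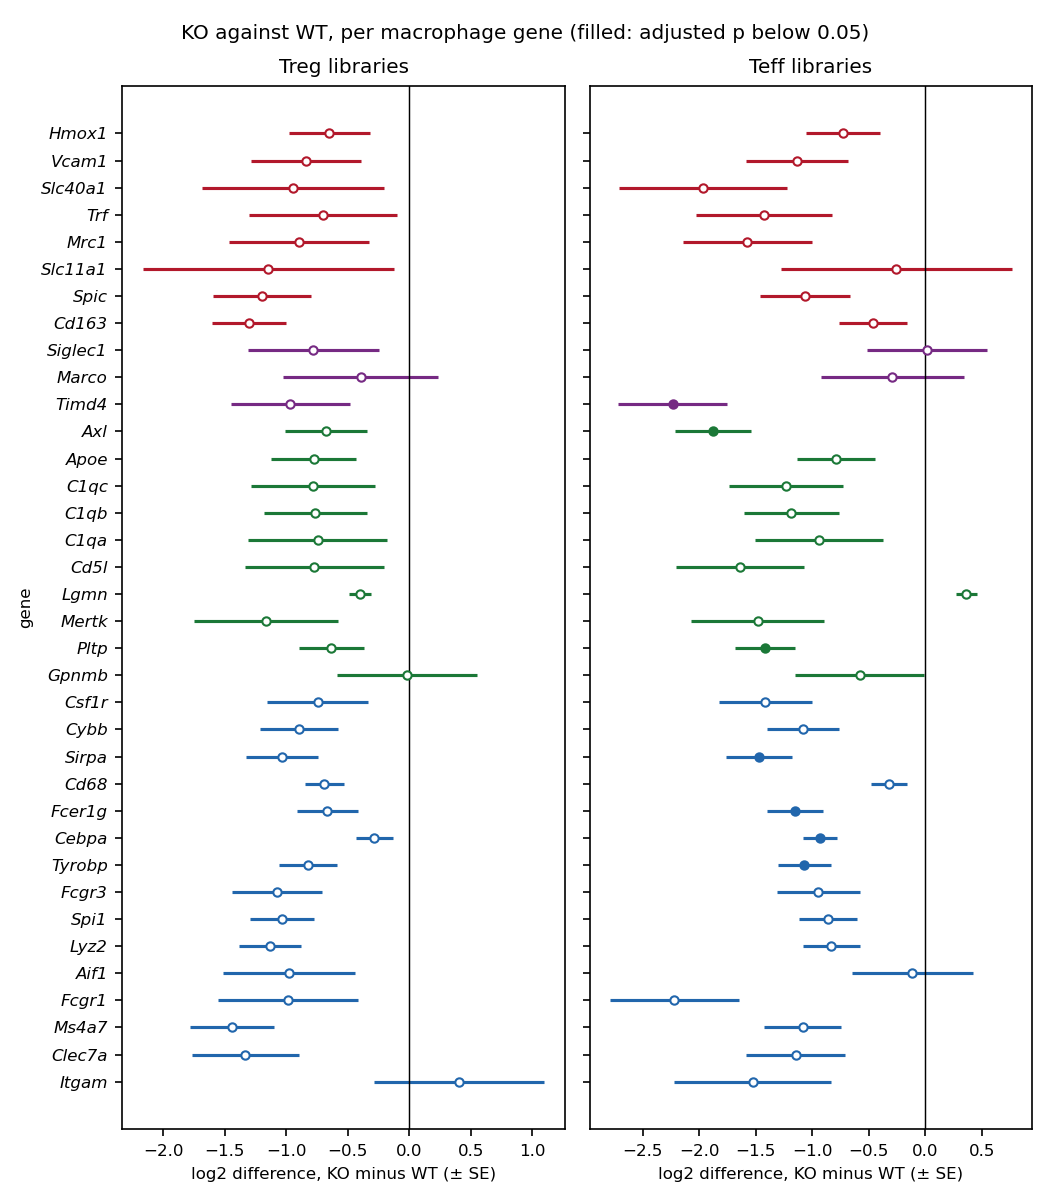
Points give the log2 difference of KO minus WT with its SE (limma over 8 libraries, n = 2 per group) for each of 36 tested genes in Treg (left) and Teff (right), coloured by role and filled where the adjusted p is below 0.05. All points but Itgam lie below 0 in Treg, where none is filled, and 7 are filled in Teff; Gpnmb in Treg lies near 0 and turns positive with quantile normalization or upper-quartile scaling.

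In Teff, 7 of 36 genes fell in KO and 0 rose (limma adjusted p below 0.05), where 5.08% of all genes were called lower and 1.84% higher. The 7 were Axl (log2 difference -1.87, SE 0.34, adjusted p = 0.0216), Cebpa (log2 difference -0.93, SE 0.15, adjusted p = 0.0151), Pltp (log2 difference -1.42, SE 0.26, adjusted p = 0.0243), Sirpa (log2 difference -1.47, SE 0.29, adjusted p = 0.0296), Fcer1g (log2 difference -1.15, SE 0.25, adjusted p = 0.0362), Timd4 (log2 difference -2.23, SE 0.48, adjusted p = 0.0376) and Tyrobp (log2 difference -1.07, SE 0.24, adjusted p = 0.0413). The median over the 36 genes was -1.08, against -0.0187 over all genes. None of the 7 belongs to the red pulp and iron group, which had a median of -1.10 and no call among 8, with 5 at an unadjusted p below 0.05 (all lower) and 3 whose groups did not overlap. Over all 36 genes 25 were at an unadjusted p below 0.05, and 21.6% of all tested genes were. Over all 36 genes the groups did not overlap in 24 with KO lower and in 1 with KO higher (background 27.4% and 22.4%). The exception was Lgmn, with a log2 difference of 0.36 (SE 0.09, adjusted p = 0.0624).

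Markers of other cell types lay lower in KO Teff as well, where 5.08% of all tested genes were called lower. In either direction 21.6% of all tested genes had an unadjusted p below 0.05. The 9 tested genes of conventional dendritic cells all had values below 0 for KO against WT, with a median of -1.13, and 2 of them fell (Zbtb46, a factor of these cells, log2 difference -1.13, adjusted p = 0.0277; Cd83, log2 difference -1.01, adjusted p = 0.00968). Their summed values were 1288 and 2114 in WT Teff and 992 and 619 in KO Teff, without overlap. Of 8 monocyte genes 2 fell (Cx3cr1, the fractalkine receptor, and Treml4), with a median of -1.04 and sums of 1890.2 and 2337 in WT and 1329 and 1278 in KO. The largest part of these sums was Ccr2, with 1008 and 1257 in WT and 792 and 838 in KO, which did not pass limma's test (adjusted p = 0.0527). Medians were -1.84 over 7 neutrophil genes (0 called, 2 unadjusted; sums 406 and 360.5 in WT and 139.5 and 111 in KO), -0.84 over 9 plasmacytoid dendritic cell genes (Spib fell), -1.08 over 3 plasma cell genes (Jchain fell) and -0.36 over 10 B cell genes (Cd22 fell). Mmp9 led the neutrophil sums, with 207 and 289 in WT and 62.3 and 49.7 in KO. Lower neutrophil genes such as Ngp (45.2 and 12.1 in WT, 13.4 and 1.03 in KO) and S100a9 (44.3 and 5.06 in WT, 5.17 and 6.20 in KO) overlapped between the groups. Cxcr2 alone of the 7 lay above 0 (log2 difference 0.33, adjusted p = 0.615). The median of 10 T cell genes was -0.10, with Zap70, a T cell receptor kinase, lower (log2 difference -0.28, adjusted p = 0.0314). The part of these cell types in the Teff differences of the macrophage genes was not tested.

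The Teff calls turned on single libraries. Without WT Teff replicate 1, 1 gene was called (Pltp), and without WT Teff replicate 2, 13 were: Apoe, the 3 C1q chains, Csf1r, Fcgr3, Hmox1, Mertk, Mrc1, Spic, Timd4, Trf and Vcam1. C1qa, Marco, Slc11a1 and Aif1 changed sign without WT Teff replicate 1. Axl, Cebpa and Sirpa were called without KO Teff replicate 2 (3 genes in all), and without either WT Treg library 2 genes were (Axl and Cebpa). Without either KO Treg library 3 were (Axl, Cebpa and Pltp), and without KO Teff replicate 1 there were 8. Fitted on the 2 Teff groups alone, limma called 0 of the 33 macrophage genes that entered that fit and 1.67% of all its genes. At an unadjusted p below 0.05 there were 12 macrophage genes and 18.9% of all genes. In the table deposited by the authors, 10 of the 37 genes had an adjusted p below 0.05 in Teff, all lower in KO, led by Sirpa (-1.40, adjusted p = 1.28e-05) and Cebpa (-0.92, 6.89e-05), where that table called 6.27% of its genes lower and 2.55% higher.

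The difference between the KO effects in Treg and in Teff passed limma's test for 0 of 36 genes, and for 3 of 13358 genes in all, each of the 3 in the higher direction (0.0225% higher, 0.00% lower). At an unadjusted p below 0.05 there were 3 of 36 macrophage genes, and 10.4% of all genes, so the count was near the background. The smallest adjusted p was that of Lgmn (log2 difference of effects -0.76, SE 0.13, adjusted p = 0.127), whose means were 1493 in WT and 1132 in KO Treg, and 445 in WT and 572 in KO Teff. The direction of its KO difference was opposite in the 2 sorts, without passing the test.

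Per length of exon the order of the genes differed between sorts. The values in this paragraph are levels in CPM (values scaled to a common library sum) per kilobase of exon, as mean ± SD of n = 2 libraries. In WT Treg the highest were Hmox1 (198 ± 11.2), Apoe (156 ± 10.1), C1qb (140.1 ± 0.650), C1qc (134 ± 5.52) and C1qa (131 ± 1.14), followed by Axl (91.4 ± 8.79). The libraries of C1qc overlapped those of C1qa, and Slc40a1 (65.0 ± 1.67), Trf (61.0 ± 3.33) and Vcam1 (58.5 ± 2.04) came next after Axl. Fcer1g (54.5 ± 0.223), Cd5l (51.9 ± 1.09), Cd68 (51.8 ± 1.46) and Tyrobp (51.4 ± 2.32) lay close together, and the libraries of the last 3 overlapped. In WT Teff the adaptor gene Tyrobp was highest (24.2 ± 2.21), ahead of Cd68 (16.0 ± 3.25), Hmox1 (13.4 ± 7.39) and Fcer1g (12.1 ± 0.855), while C1qa had 6.95 ± 6.25. The libraries of Hmox1 overlapped those of Cd68 and of Fcer1g there. At the low end in WT Treg stood Gpnmb (0.301 ± 0.00836), Vsig4 (0.405 ± 0.0258) and Itgam (0.601 ± 0.397).

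Further genes outside the 37 were read from lists. Of 22 further macrophage genes 19 were tested. In WT 14 were higher in Treg and 0 lower (median 2.76), where 13.5% and 11.6% of all tested genes were. In KO the counts were 12 and 0 (15.7% and 11.2% of all). For KO against WT, 1 fell in Treg (median -0.85) and 5 in Teff (median -0.84), with none higher. Of all tested genes 0.779% fell in Treg and 5.08% in Teff. The 5 in Teff were Ctsb, Maf (4950 and 5175 in WT, 3788 and 3503 in KO), Csf1 (426 and 406 in WT, 189 and 164 in KO), Clec4n (51.9 and 24.0 in WT, 4.31 and 2.88 in KO) and Ms4a6d (110 and 123 in WT, 61.8 and 59.3 in KO). Clec4n had the largest of these falls (log2 difference -3.00, limma adjusted p = 0.00677). Which cells gave these values was not tested. The gene that fell in Treg was Ctsb, a lysosomal protease that T cells also express (log2 difference -0.43, adjusted p = 0.0149). The ficolin gene Fcna had 1884 and 1775 in WT Treg, 1007 and 868 in KO Treg, 109 and 20.4 in WT Teff and 40.1 and 16.6 in KO Teff (Treg against Teff in WT: log2 difference 5.24, adjusted p = 0.00179). Of 13 tested genes of haem and iron handling, 5 were higher and 2 lower in WT Treg (median 0.31), and none was called between KO and WT in either sort by limma (unadjusted p below 0.05 in 4 in Treg and 3 in Teff). Of all 13358 tested genes, 1964 in Treg and 2881 in Teff (21.6%) had an unadjusted p below 0.05.

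Lists of other cell types did not all run with the macrophage genes. For Treg against Teff in WT, 13.5% of all tested genes were called higher and 11.6% lower, so small counts in short lists can lie near these shares. At an unadjusted p below 0.05 there were 4895 of all 13358 tested genes. The counts higher and lower were 3 and 3 of 8 tested monocyte genes, 0 and 0 of 7 neutrophil genes (1 at an unadjusted p below 0.05), 1 and 4 of 9 plasmacytoid dendritic cell genes, 1 and 0 of 10 B cell genes and 1 and 1 of 3 plasma cell genes. They were 5 and 0 of 8 erythroid genes, 0 and 4 of 4 NK cell genes, 0 and 2 of 4 stromal and endothelial genes, 1 and 3 of 10 T cell genes, 0 and 0 of 2 CD8 genes (0 unadjusted), 0 and 1 of 1 mast cell and basophil gene, and 0 and 0 of 1 platelet gene (0 unadjusted). For KO against WT in Treg, 1 gene of these 12 lists was called, the monocyte gene Vcan (adjusted p = 0.00557), where 0.779% of all tested genes were called lower and 0.674% higher. Vcan encodes the matrix proteoglycan versican and had 71.3 and 75.2 in WT Treg, 0.465 and 0 in KO Treg, 3.15 and 2.22 in WT Teff and 0 and 0 in KO Teff. The medians for KO against WT in Treg were -0.48 for monocyte, -0.37 for neutrophil, -0.29 for conventional dendritic cell, -0.29 for plasmacytoid dendritic cell, -0.31 for erythroid and 0.23 for B cell genes. Neutrophil genes summed to 195 and 232 in WT Treg and 406 and 360.5 in WT Teff, far below the macrophage genes, with Ly6g at 0 in both WT sorts. These sums were led by Mmp9, with 53.6 and 92.7 in WT Treg and 207 and 289 in WT Teff. Monocyte genes summed to 1589 and 1684 in WT Treg and 1890.2 and 2337 in WT Teff. Ccr2 was the largest part of these sums, with 852 and 847 in WT Treg and 1008 and 1257 in WT Teff. In WT Treg it was followed by Treml4 (483 and 570). Ly6c2, a marker of classical monocytes that activated T cells can express, had 14.5 and 21.8 in WT Treg, 2.89 and 19.5 in KO Treg, 431 and 538 in WT Teff and 314 and 243 in KO Teff. The part of any of these cell types in the macrophage gene values was not tested.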

How the data were processed

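RNA was measured in 8 libraries (Treg and Teff, WT and KO, 2 each), grouped by their labels. The authors deposited 1 table whose library columns are a signal, normalized read numbers that are not whole (28.7% to 29.5% of positive values were whole multiples of the commonest step, tolerance 0.02), so no count test was run. Per the submitters' processing notes, reads of this series were handled with DESeq2 1.28.1, R 4.0.3, Salmon 0.14.1 and Trim Galore 0.4.4 on mm10; summing to genes and gene filters are not given in the sources used here. Per the labels' protocols, polyadenylated RNA was primed with random hexamers and read from 1 end, with no molecular identifiers or strand step named. The deposited log2 fold changes and adjusted p-values are quoted only as the authors' deposited table.

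The test was that of limma 3.58.1 (trend, robust; R 4.3.3) on log2(value + 1), with 1 coefficient per group, 4 residual degrees of freedom, Benjamini-Hochberg over the 13358 genes that reached 10 in 2 or more libraries, called at 0.05. The design assumed either counts or such values and named this test for the latter; it was tested on simulated data. Exon lengths and coordinates came from GENCODE M21 (GRCm38, also called mm10). Members, groups and lists were chosen with earlier results of these data known. Named were all members, with values per library, and up to 4 genes of highest mean of each list. Fcna, Vcan, Flt3, Siglech, Cx3cr1, Spib, Zap70, Cd209a, Cd209b, Ly6g, Clec4n and Ms4a6d were chosen after their values were seen. Alternatives were pseudocount, filter, scaling, shrinkage, groups fitted, replicate block and single libraries left out. Tables were made with pandas 2.3.3 (Python 3.11.15, numpy 2.4.6) and drawn with matplotlib 3.10.9.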

Additional observations from a re-analysis of the deposited data

How the results depend on the processing

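Over single libraries left out, the number of macrophage genes called was 0 to 3 for KO against WT in Treg, 1 to 13 in Teff, 29 to 34 for Treg against Teff in WT, 30 to 32 in KO, and 0 for the difference of the KO effects. With 1 library left in a group, that library is assumed to vary like the others. For KO against WT in Treg the count was 17 when only the 2 groups were fitted and 3 without both WT Teff libraries, an alternative chosen after seeing the data. In Teff it was 0 with only the 2 groups, 2 without trend and robust shrinkage, and 4 with quantile normalization. With the replicate number as a block it was 4 in Teff, 0 in Treg, 33 and 32 for the sorts in WT and KO, and 0 for the difference; same-numbered libraries of different groups did not deviate together (r -0.0404 to 0.0256), so they share only a number. The cause was not tested, other than that settings with fewer libraries have fewer residual degrees of freedom. Signs turned for 10 values that were not called, whose log2 differences ran as follows when 1 library was left out. For KO against WT in Treg, Gpnmb had 0.000908 with upper-quartile scaling, 0.0421 with quantile normalization, -0.50 to 0.46 with 1 library left out, and Itgam -0.48 to 1.29. For KO against WT in Teff, Slc11a1 had -1.96 to 1.44, Marco -1.37 to 0.79, Siglec1 -0.0217 with a pseudocount of 5, -0.95 to 0.98 with 1 library left out, C1qa -1.99 to 0.11, Gpnmb -1.44 to 0.28 and Aif1 -0.90 to 0.67. For Treg against Teff, Spi1 in WT had -0.58 to 0.0922 and Itgam in KO -1.34 to 0.43. Of the 7 calls in Teff the adjusted p reached 0.0919 for Axl, 0.123 for Pltp, 0.184 for Tyrobp, 0.0852 for Cebpa, 0.135 for Sirpa, 0.126 for Timd4 and 0.129 for Fcer1g. With 2 libraries per group and unknown read counts per gene, intervals for low genes such as Vsig4 could not be given.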

Other observations

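Erythroid genes also lay higher in Treg. Of 8 tested, 5 were higher in WT Treg than in WT Teff and 6 in KO, where 13.5% and 15.7% of all tested genes were. Their medians were 2.68 and 2.58 on the log2 scale, and none was called between KO and WT in Treg or in Teff by limma (unadjusted p below 0.05 in 0 and 1). Of all 13358 tested genes, 1964 in Treg and 2881 in Teff had an unadjusted p below 0.05. The haemoglobin chain gene Hba-a2 had 709.9 and 684 in WT Treg, 591 and 509 in KO Treg, 161 and 62.5 in WT Teff and 124 and 83.4 in KO Teff, and the near-identical Hba-a1, which can share its reads, 359 and 449 in WT Treg, 321 and 344 in KO Treg, 72.3 and 37.3 in WT Teff and 37.1 and 24.7 in KO Teff. In these 2 genes, which are not independent, WT Teff replicate 1 stood above replicate 2, as in the red pulp genes. Summed over the 9 measured erythroid genes, Tfrc among them, WT Teff had 1275 and 1020. The ratio of replicate 1 to replicate 2 was 1.25, against 2.86 for the red pulp and iron genes. Most of these WT Teff sums was Tfrc, the transferrin receptor, which dividing T cells also express. It had 928 and 1850.3 in WT Treg, 901 and 1636 in KO Treg, 993 and 889 in WT Teff and 590.2 and 642 in KO Teff. The ratio of 1.25 therefore mainly describes Tfrc, and the sum without it was not taken.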
